A study of Mus musculus with 2 samples.

Results

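Open chromatin between genes, but close to them, was described in whole lung of newborn mice at 17074 sites. A site was a merged group of overlapping DNase-seq peaks on chromosomes 1 to 19 that held at least 1 peak of each replicate. Its centre had to lie outside every GENCODE gene body, 1000 bp to 20 kb from the nearest protein-coding transcription start site (TSS), and over 1000 bp from any TSS. These near-gene intergenic sites were 10.9% of the 157228 sites shared by both replicates. The other shared sites were 32461 remote intergenic, 62132 intronic, 6431 exonic and 39130 promoter sites (within 1000 bp of a TSS). Remote sites lay outside gene bodies and over 20 kb from any protein-coding TSS. Near and remote thus refer to distance from a TSS, and a remote site can lie close to the 3′ end of a long gene.

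The study held 1 group, lung from newborn mice (postnatal, 0 day) of strain B6NCrl, in 2 biological replicates of untreated tissue. DNase-seq maps DNA that is open to the nuclease DNase I. Per the labels the replicates are different biosamples of a single donor entry, of uncollected sex, and it is not said whether they are individual animals or pools. Replicate 1 listed 269825 peaks on chromosomes 1 to 19 and replicate 2 listed 183814. The sources used here give no read depth.

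DNA between genes holds enhancers and insulators, short stretches where transcription factors displace nucleosomes. An enhancer raises transcription of a gene at a distance, often of a neighbour but not always of the nearest. CTCF, a zinc finger protein, binds insulators and anchors chromatin loops, while AP-1, ETS, TEAD, forkhead (FOX) and other factors bind enhancers by short DNA words. Newborn lung is a mixture of alveolar, airway, endothelial, mesenchymal and blood cells, so a weak site in many cells and a strong site in few cells cannot be told apart.

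The sequences below show what strong sites of this kind look like, with 150 bp around the site centre on the plus strand of mm10 (RefSeq sequence of GRCm38). Each is named by its nearest protein-coding gene and its distance from the nearest TSS of that gene. Capitals mark 1 or 2 chosen words per sequence that a search found on either strand, and other searched words are left in lower case, such as the E-box CAGCTG at Zfp869 and the SP word at Btg2. The words in capitals are GGGCGGGG, which is the SP word CCCCGCCC read on the other strand (at Fos), the AP-1 word TGACTCA (at Zfp869), the CTCF core (at Phlda3 and at Scgb1a1), the FOX word TGTTTAC (at Nr4a1), a CArG box, bound by serum response factor (at Btg2), and the E-box CACGTG (at Nr1d1). At Hopx the RUNX word AACCACA and the TEAD word CATTCC overlap, and AGGTCA is the word of nuclear receptors.
Fos, 18489 bp upstream, chr12:85455326-85455475: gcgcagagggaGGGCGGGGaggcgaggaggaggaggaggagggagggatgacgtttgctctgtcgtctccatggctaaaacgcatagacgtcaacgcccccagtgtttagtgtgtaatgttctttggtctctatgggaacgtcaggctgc
Zfp869, 6327 bp upstream, chr8:69716976-69717125: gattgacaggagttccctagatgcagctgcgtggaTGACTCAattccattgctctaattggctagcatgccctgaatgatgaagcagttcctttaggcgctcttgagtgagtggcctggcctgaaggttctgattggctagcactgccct
Phlda3, 12998 bp upstream, chr1:135753046-135753195: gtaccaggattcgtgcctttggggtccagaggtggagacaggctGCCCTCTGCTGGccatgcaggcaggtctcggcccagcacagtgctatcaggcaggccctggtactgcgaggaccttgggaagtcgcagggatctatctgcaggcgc
Scgb1a1, 5277 bp past the start and beyond the 3′ end, chr19:9082606-9082755: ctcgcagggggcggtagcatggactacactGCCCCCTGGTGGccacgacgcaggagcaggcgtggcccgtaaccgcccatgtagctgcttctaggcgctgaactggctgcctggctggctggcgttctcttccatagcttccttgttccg
Nr4a1, 7818 bp upstream, chr15:101246376-101246525: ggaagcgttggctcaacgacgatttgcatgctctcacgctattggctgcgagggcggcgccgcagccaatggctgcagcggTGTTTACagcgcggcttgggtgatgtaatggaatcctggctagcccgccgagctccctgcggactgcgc
Btg2, 13981 bp upstream, chr1:134093026-134093175: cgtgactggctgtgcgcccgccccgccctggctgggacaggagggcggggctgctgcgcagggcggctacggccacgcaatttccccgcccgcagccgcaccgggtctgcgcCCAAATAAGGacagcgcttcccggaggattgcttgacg
Nr1d1, 8218 bp upstream, chr11:98783476-98783625: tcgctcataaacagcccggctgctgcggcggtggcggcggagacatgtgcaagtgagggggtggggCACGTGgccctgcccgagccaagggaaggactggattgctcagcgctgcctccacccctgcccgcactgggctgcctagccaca
Hopx, 11490 bp upstream, chr5:77126536-77126685: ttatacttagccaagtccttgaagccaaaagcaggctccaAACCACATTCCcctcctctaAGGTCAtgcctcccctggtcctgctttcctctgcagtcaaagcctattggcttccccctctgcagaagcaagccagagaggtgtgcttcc

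By mean rank over both replicates the Fos site was the strongest member, with scores of 146 in replicate 1 and 143 in replicate 2. It spanned chr12:85455316-85455485, had 9 CpG dinucleotides in its central 150 bp and lay in hotspots (broader open regions) of 1764 bp in replicate 1 and 1145 bp in replicate 2. Fos encodes a subunit of AP-1 that cells induce within minutes of a stimulus. The other 9 strongest sites lay nearest to the forkhead factor gene Foxo3 (145 and 137), the synaptic gene Bsn (148 and 132), the desaturase gene Scd3 (145 and 133), Zfp869 (145 and 131), Tle2 (145 and 130), the immediate early gene Nr4a1 (145 and 129), Ptma (143 and 131), the histone methyltransferase gene Nsd1 (144 and 129) and Fbrs (141 and 136), given as scores in replicates 1 and 2. Of these 10 sites, 9 were upstream of the nearest gene, at distances from 1056 bp (Foxo3) to 19401 bp (Nsd1). The site near Scd3 lay 10466 bp from the TSS, beyond the 3′ end of the gene. The strongest site with the CTCF core, near Phlda3, had scores of 134 and 116.

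Near-gene intergenic sites carried stronger peaks than other open sites away from promoters. The score, a value given by the authors to each 150 bp peak, had a median of 70 in replicate 1 (95% interval 70 to 71) and 49 in replicate 2 (49 to 50). Remote intergenic sites had medians of 58 and 39, intronic sites 63 and 43, exonic sites 65 and 45, and promoter sites 86 and 63, each for replicates 1 and 2. The order of the 5 classes was the same in both replicates. In each replicate's whole list, shared or not, medians were 52 and 46 near genes, 42 and 36 in remote DNA, 48 and 40 in introns, 48 and 42 in exons, and 67 and 56 at promoters. Introns and exons thus tied in the list of replicate 1, and near-gene peaks lay above both in each list. No test was run on these differences, since the design has 1 group, and the intervals here and below are exact 95% intervals that cover counting error only. The quartiles of near-gene sites were 51 and 89 in replicate 1 and 35 and 68 in replicate 2, so the classes overlapped widely.

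**Figure D1:**
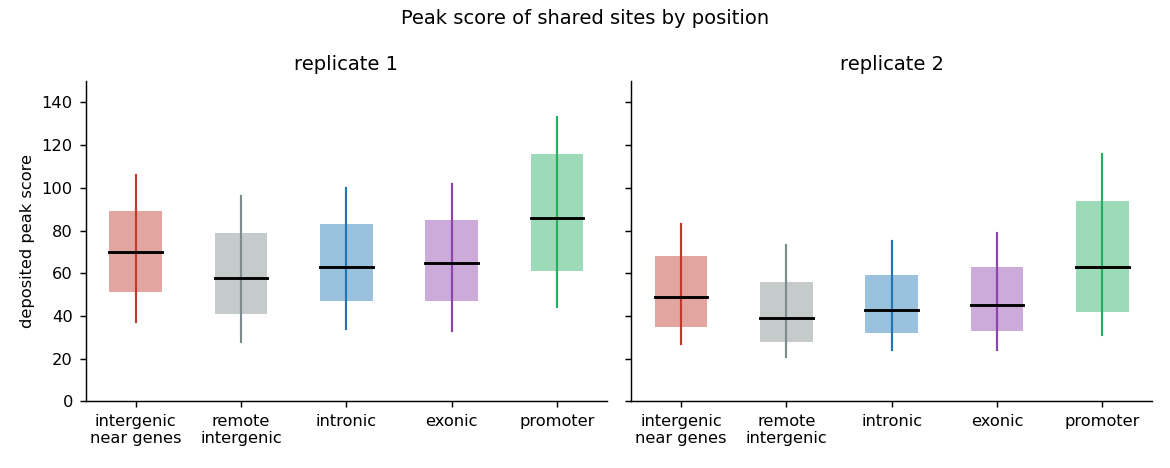
Peak scores of shared sites by position, in replicate 1 (left) and replicate 2 (right). Black lines are medians, boxes the quartiles and thin lines the 10th to 90th percentiles. Near-gene intergenic sites (medians 70 and 49) lie above remote, intronic and exonic sites and below promoter sites in both replicates.

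A peak near a gene was found in both replicates more often than one elsewhere between genes. Of 29866 merged sites that met the rule on position, 17074 held peaks of both replicates (57.2%, interval 56.6 to 57.7%), against 55.5% of all merged sites and 52.4% of remote ones (52.0 to 52.8%). Of the rest, 10966 held a peak of replicate 1 only and 1826 of replicate 2 only. Hotspots, which the rule did not use, enclosed the site centre in both replicates for 98.2% of near-gene sites (98.0 to 98.4%), close to the 98.1% of all shared sites. The share depends on a site holding peaks of both replicates: it was 59.1% for near-gene peaks of replicate 1 taken alone and 90.4% for those of replicate 2. The hotspot's −log10 q-value was at its cap of 100 for 68.3% of the near-gene sites in a hotspot of replicate 1 and 43.9% of those in one of replicate 2, against 65.3 and 40.7% of remote sites. Over all shared sites these shares were 68.8 and 45.6%, so near-gene sites did not exceed them. The log2 ratio of the score in replicate 1 to that in replicate 2 had a median of 0.44 near genes, 0.49 at remote sites and 0.44 over all shared sites. The meaning of the score is not given, so this ratio between lists is a description only. The highest 10% of shared sites in both replicates held 743 near-gene sites (4.35%), against 1.94% of remote, 2.34% of intronic and 25.8% of promoter sites. Over all shared sites the share was 8.34%, above that of near-gene sites.

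In median GC content the sites matched shared sites as a whole and stood between remote sites and promoters. Their median GC content was 50% (quartiles 45.3 and 54.7%), against 47.3% at remote, 48.7% at intronic, 51.3% at exonic and 58.7% at promoter sites. Over all shared sites it was also 50%. Windows 2000 bp away from near-gene sites and outside all hotspots had a median of 45.3%. At least 10 CpG dinucleotides, as in CpG islands, were present in 468 near-gene sites (2.74%), in 1.10% of remote sites and in 38.7% of promoter sites. Exonic sites had them in 8.23% of cases and all shared sites in 10.85%. Repeats that RefSeq masks filled most of the window at 5.997% of near-gene sites, at 4.96% of remote sites and at 29.5% of the windows 2000 bp away. Over all shared sites the share was 4.03%, and near-gene sites had the highest share of the site classes.

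Upstream of genes, sites were densest just outside the promoter. DNA that fits the rule on position came to 236.5 Mb, or 9.87% of chromosomes 1 to 19, and held 72.2 near-gene sites per Mb (71.1 to 73.3). Remote intergenic DNA held 33.7 per Mb (33.3 to 34.1) and chromosomes 1 to 19 as a whole 65.6 per Mb. With both sides of the gene pooled, at 1 to 2 kb from the TSS the density was 106.3 per Mb (101.1 to 111.6), and at 2 to 5 kb it was 78.3 per Mb (75.8 to 80.9). Beyond that it was nearly level, with 68.9 at 5 to 10 kb, 67.1 at 10 to 15 kb and 66.7 at 15 to 20 kb. Upstream alone it was 109.8 per Mb at 1 to 2 kb (104.4 to 115.5) and 63.8 at 15 to 20 kb. Distances past the 3′ end are also from the TSS, so a bin there holds only sites of genes that end within its distance. The bins of that side thus hold different genes, and gene length was not matched. Past the 3′ end the density at 1 to 2 kb was the lowest of that side, 68.6 per Mb (55.2 to 84.4, 90 sites), against 80.7 at 2 to 5 kb (74.96 to 86.7) and 71.7 at 15 to 20 kb. Beside genes with an accessible promoter, defined below, that bin was not the lowest. It held 137.6 per Mb past the 3′ end, against 92.3 at 15 to 20 kb. With the sides pooled, peaks of replicate 1 alone gave 190.3 per Mb at 1 to 2 kb and 112.5 at 15 to 20 kb, and peaks of replicate 2 alone gave 122.5 and 76.5. The ratio of density at 1 to 2 kb to that at 10 to 20 kb was 1.59 for shared sites. Scores changed little with distance, from medians of 72 and 50 at 1 to 2 kb to 68 and 47 at 15 to 20 kb in replicates 1 and 2. Just inside and just outside the limit of 1000 bp the medians were 72 and 49 (410 sites) and 72 and 50 (456 sites). Just inside and just outside 20 kb they were 66 and 46 (596 sites) and 69 and 48 (557 sites).

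Over all genes, most sites lay upstream, but no more than the DNA there. Of the 17074 sites, 12055 (70.6%, 69.9 to 71.3%) were upstream of the nearest protein-coding TSS, where 71.0% of the DNA that fits the rule also lay. The other 5019 lay past the 3′ end of the nearest gene. Upstream DNA held 71.8 sites per Mb (70.5 to 73.1) and DNA past the 3′ end 73.3 (71.3 to 75.3). Between converging genes the density was 79.9 per Mb (76.7 to 83.1), between diverging genes 75.5 (73.6 to 77.6), and between genes in tandem 68.6 (67.2 to 70.0). Intergenic stretches shorter than 10 kb held 107.1 sites per Mb (102.5 to 111.8), with median scores of 75 and 54. Stretches over 500 kb held 40.1 (36.7 to 43.8), with medians of 64 and 44. Chromosome 11 had the highest density, 104.9 per Mb, and chromosome 14 the lowest, 54.7.

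Genes whose own promoter was open had more sites beside them. A promoter was called accessible if a shared site lay within 500 bp of any TSS of the gene, which held for 14567 of 20807 protein-coding genes (70.0%). Genes with an accessible promoter were nearest to 13804 of the sites (80.9%, 80.3 to 81.4%), although they had 63.1% of the DNA that fits the rule. Around them the density was 92.6 sites per Mb (91.0 to 94.1), against 37.5 (36.2 to 38.8) around genes without an accessible promoter. Median scores were 72 and 50 beside accessible promoters, and 62 and 43 beside the others. The promoter sites are not members, since they lie within 1000 bp of a TSS. The rise in density toward the TSS was seen upstream in both classes: at accessible promoters 141.4 per Mb at 1 to 2 kb and 74.95 at 15 to 20 kb, at the other promoters 51.9 and 38.3. Past the 3′ end the densities at these distances were 137.6 and 92.3 per Mb beside accessible promoters, while the other genes had 27.9 per Mb at 1 to 2 kb (23 sites) and 40.3 at 15 to 20 kb. Upstream bins and those past the 3′ end were not matched for gene length. Beside accessible promoters the density past the 3′ end was above that upstream in every bin beyond 2 kb. At 2 to 5 kb it was 135.8 per Mb against 96.8 upstream, and beside the other genes it was 35.8 against 42.1.

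**Figure D2:**
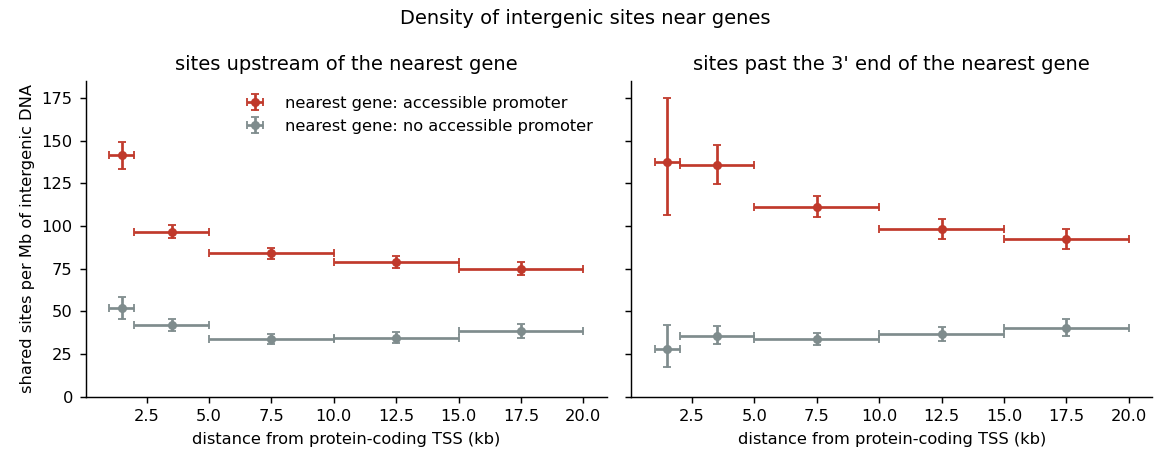
Density of near-gene intergenic sites by distance from the nearest protein-coding TSS, upstream (left) and past the 3′ end (right). Points are sites per Mb of DNA that fits the rule, horizontal bars the distance bin and vertical bars exact 95% intervals for counting error. Genes with an accessible promoter (red) had 92.6 sites per Mb in all and the others (grey) 37.5.

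Gene families of the sense organs made up part of the sparse class. Olfactory receptor (Olfr) genes, which odour-sensing neurons express, had 10.3 sites per Mb (166 sites beside 120 of 1107 genes). Vomeronasal receptor (Vmn) genes, which detect pheromones, had 3.86 (25 sites beside 20 of 318 genes). Without these families, genes with no accessible promoter still had 47.5 sites per Mb (45.8 to 49.2). These families were looked at after the other densities were known, and reads from near-identical copies may have been placed or dropped in ways the sources used here do not give.

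The CTCF core, of the 27 words searched, had the highest ratio of its share near genes to that at remote sites, 1.78. It was present in 1249 near-gene sites (7.32%, 6.93 to 7.72%), in 4.11% of remote sites (3.90 to 4.33%), in 3.99% of intronic sites (3.84 to 4.15%) and in 1.74% of promoter sites. All shared sites had it in 3.86% of cases, and 26318 windows 2000 bp away from near-gene sites in 0.0494% (13 windows). The replicate lists gave the same order, with 4.52% near genes and 2.45% at remote peaks in replicate 1, and 6.60 and 3.59% in replicate 2. The median score of near-gene sites with the core was 81 (replicate 1) and 67 (replicate 2), and of those without it 69 and 48. In 4 equal groups of near-gene sites by score, from weak to strong, the share with the core was 1.80, 4.90, 10.3 and 12.3%. At equal rank near-gene and remote sites were apart mainly among strong sites. Above the 75th percentile of all shared sites 12.3% of near-gene sites had the core (11.3 to 13.3%), against 7.72% of remote (6.95 to 8.54%), 7.17% of intronic (6.68 to 7.69%) and 9.91% of exonic sites (8.31 to 11.7%), so the intervals of near-gene and exonic sites overlapped. From the 50th to the 75th percentile the shares were 9.96% near genes (9.14 to 10.8%), 7.28% at remote (6.70 to 7.89%) and 7.18% at exonic sites. Between the 25th and the 50th percentile the intervals of near-gene (4.02%, 3.47 to 4.64%) and remote sites (3.24%, 2.89 to 3.63%) overlapped. The interval of intronic sites there (2.55%, 2.33 to 2.79%) lay below that of near-gene sites. Among the weakest sites the intervals overlapped, with 1.81% near genes (1.39 to 2.31%), 1.36% at remote (1.15 to 1.58%) and 1.39% at intronic sites (1.21 to 1.58%).

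The CTCF core was not spread evenly around genes. It was present in 9.29% of sites past the 3′ end (8.50 to 10.1%) and in 6.50% of sites upstream (6.06 to 6.95%). In replicate 1 the whole list gave 5.79% past the 3′ end and 4.01% upstream, and in replicate 2 it gave 8.35 and 5.87%. At 1 to 2 kb from the TSS the share was 4.94% (3.93 to 6.12%), and in the bins beyond 2 kb it was 7.21 to 7.96%. Among remote sites it was 5.72% at 20 to 50 kb, 4.15% at 50 to 100 kb and 2.81% at 100 to 500 kb, where median scores were 65 and 44, 61 and 41, and 53 and 35. Between converging genes 9.08% of near-gene sites held the core (7.98 to 10.3%), and between diverging genes 6.61% (5.97 to 7.30%). The core is not a palindrome, so its strand can be read. Upstream of genes it read toward the TSS in 388 of 783 sites (49.6%, 46.0 to 53.1%), and past the 3′ end, where toward the TSS means into the gene, in 180 of 465 (38.7%, 34.3 to 43.3%).

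The sites near Scgb1a1, the gene of the main secretory protein of club cells, and Aqp5, the water channel gene of alveolar type 1 cells, are examples. Beyond the 3′ end of Scgb1a1 the site with the CTCF core had scores of 107 and 92. Past Aqp5, chosen here after its values were seen, neighbouring sites at 3713 and 4133 bp from the TSS both held the core, with scores of 95 and 80 and of 96 and 80 in replicates 1 and 2.

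**Figure D3:**
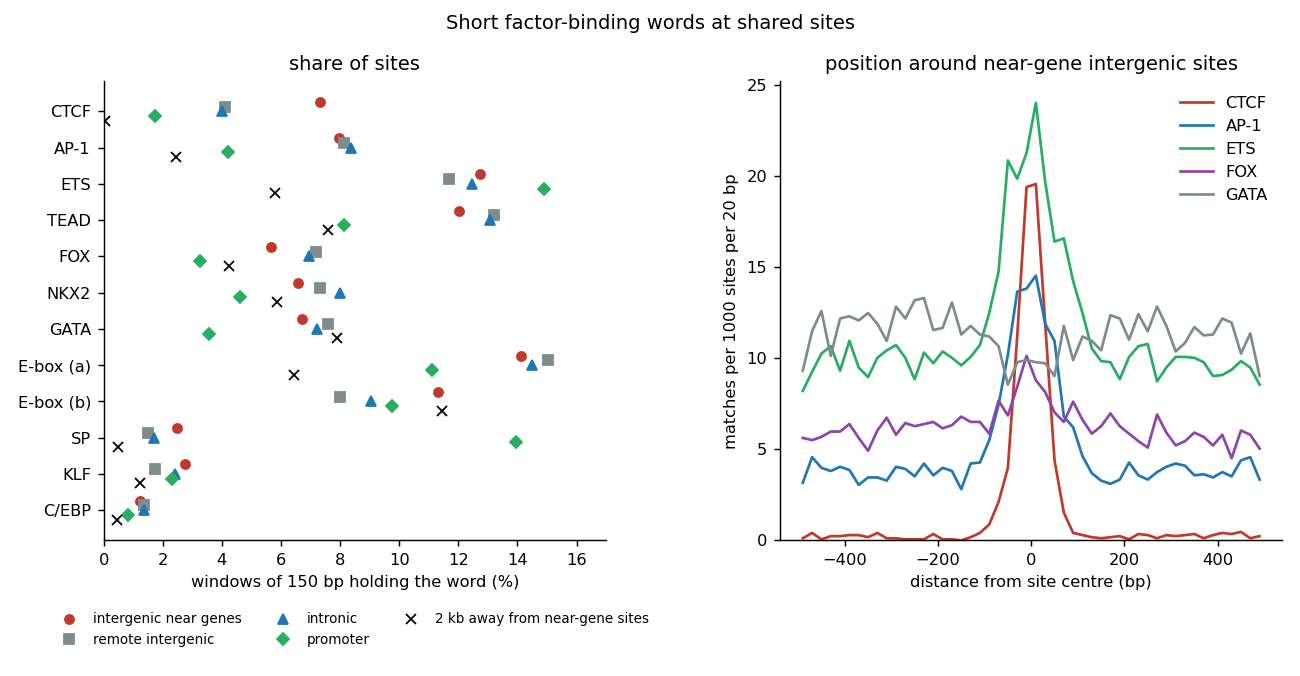
Left, share of 150 bp windows holding each word at near-gene intergenic sites, at other classes and in windows 2000 bp away; E-box (a) is CAGCTG and E-box (b) is CAGGTG. Right, matches per 1000 near-gene sites in 20 bp bins around the site centre; CTCF reaches 19.6 in a bin beside the centre, and GATA is lower at the centre than in the flanks.

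The shares of 5 enhancer factor words near genes were 0.787 times (FOX) to 1.09 times (ETS) those at remote sites. AP-1 (TGACTCA or TGAGTCA) was present in 7.97% of near-gene sites (7.56 to 8.38%), 8.14% of remote, 8.37% of intronic and 4.19% of promoter sites, 7.15% of all shared sites, and 2.45% of the windows 2000 bp away. ETS words (CCGGAAG or CAGGAAG) were present in 12.7% of near-gene sites, 11.7% of remote and 14.9% of promoter sites, and 5.81% of windows 2000 bp away. FOX words (TGTTTAC or TATTTAC) were rarer near genes, at 5.65% (5.31 to 6.01%), than at remote (7.18%) or intronic sites (6.94%), and at 4.25% in windows 2000 bp away. TEAD words (GGAATG) were present in 12.02% of near-gene sites (11.5 to 12.5%) and 13.2% of remote ones (12.8 to 13.6%), and NKX2 words (CCAAGTG or TCAAGTG) in 6.59% of near-gene, 7.34% of remote and 7.99% of intronic sites. Over all shared sites the shares were 12.9% for ETS, 5.87% for FOX, 11.7% for TEAD and 6.83% for NKX2. All words were searched on both strands, the searches were not made exclusive of each other, and a match is only a run of letters.

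Among other words, SP, KLF and the E-box CAGGTG were more common near genes than at remote sites, and GATA was less common. SP (CCCCGCCC) was present in 2.47% of near-gene sites (2.24 to 2.72%), 1.51% of remote and 14.0% of promoter sites, and KLF (CCACACCC) in 2.74% of near-gene, 1.72% of remote and 2.32% of promoter sites. The E-box CAGGTG was present in 11.3% of near-gene sites and 7.98% of remote ones, but in 11.5% of windows 2000 bp away. The word AGATAA of GATA factors, which regulate blood and endoderm, was present in 6.72% of near-gene sites (6.35 to 7.10%), 7.58% of remote and 3.58% of promoter sites, and 7.90% of windows 2000 bp away. Rare words were C/EBP (TTGCGCAA, TTGCGTAA or TTGCATCA), with 1.22% of near-gene sites and 0.460% of windows 2000 bp away, the glucocorticoid receptor palindrome (GNACA facing its complement across 3 bases), with 0.720 and 0.262%, and the grainyhead word AACCGGTT, with 0.193% and 1 window. At remote sites these rare words had shares of 1.35% (C/EBP), 0.715% (the receptor palindrome) and 0.114% (grainyhead). Over all shared sites the shares were 4.82% for SP, 2.27% for KLF, 9.37% for CAGGTG, 6.25% for GATA, 1.21% for C/EBP, 0.631% for the receptor palindrome and 0.133% for grainyhead. RUNX (TGTGGTT) was present in 4.33% of near-gene and 3.56% of all shared sites, the nuclear receptor word AGGTCA in 10.4% of near-gene and 9.34% of all shared sites, and the CArG box in 0.961% of near-gene and 0.832% of all shared sites. In the inner 80 bp of sites, per base, CTCF was 58.8 times as frequent as in the outer flanks, C/EBP 3.74 times, AP-1 3.44 times, SP 2.78 times and ETS 2.26 times. FOX was 1.59 times and GATA 0.887 times as frequent there. NFI (TTGGC facing its complement across 5 bases) had only 14 inner and 3 outer matches, a ratio of 11.7. In the same 4 groups from weak to strong, AP-1 was present in 6.68, 8.15, 7.31 and 9.72% of sites and GATA in 7.61% of the weakest and 5.29% of the strongest.

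The strongest near-gene sites shared features with promoters. Of the 743 in the highest 10% of both replicates, 142 had at least 10 CpG dinucleotides (19.1%, 16.3 to 22.1%), against 2.00% of the other members. Their hotspots had median widths of 895 and 646 bp, against 349 and 266 bp in replicates 1 and 2. The cyclic AMP response word TGACGT was present in 51 of them (6.86%, 5.15 to 8.93%), in 2.39% of the other members and in 5.41% of promoter sites. The CCAAT word of NF-Y (CCAATCA, or the same with G in either or both of its last 2 places) was present in 10.4% of the strongest members (8.27 to 12.8%), 4.83% of the other members and 9.88% of promoter sites. Both words were chosen after the strongest sequences had been read. All shared sites had them in 3.50 and 6.07% of cases. RefSeq annotates a TSS within 1000 bp of 109 of the 743 (14.7%, 12.2 to 17.4%) and of 6.30% of the other members (5.93 to 6.68%). Of sites with at least 10 CpG, 23.5% were that close to a RefSeq TSS. In all, 15.4% of the members lay inside a RefSeq gene body, and 72.3% met the rule in both annotations.

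Near-gene sites had a shorter median gap to another shared site than remote, intronic or exonic sites. The median gap to the nearest shared site of any class was 2150 bp near genes and 3740 bp in remote DNA. It was 2670 bp in introns, 2330 bp in exons and 630 bp at promoters. The rule itself places every member close to a TSS, where promoter sites lie. No expected gap was computed, so grouping beyond the rule was not tested. Of the 17260 protein-coding genes with DNA that fits the rule, 8150 (47.2%) had at least 1 site, 3905 had exactly 1 and 30 had at least 10. Id1, an inhibitor of basic helix-loop-helix factors, had the most, with 17. It was followed by Adamtsl4, a gene of a secreted matrix protein, and Foxa1, a pioneer factor gene of lung epithelium, with 16 each. Trim27 had 14, and Fam189a2, Hes1 (a Notch target) and Pim3 (a kinase gene) had 13. Genes with 12 sites included Btg2, an antiproliferative early response gene, Ddit4, a stress-induced regulator of mTOR, and 1700122O11Rik. The nearest gene is not shown to be the one a site acts on.

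Sites at the same gene differed widely in strength. At Id1, 9 sites lay upstream and 8 past the 3′ end, with scores of 50 to 135 in replicate 1 and 28 to 112 in replicate 2. The strongest lay 1040 bp upstream (135 and 112), 3260 bp past the TSS (134 and 101) and 5340 bp past it (127 and 106). Foxa1 had 3 sites upstream and 13 between 5700 and 11450 bp on the other side, and its scores were 36 to 101 in replicate 1 and 26 to 69 in replicate 2. Its median scores, 55 and 37.5, were below the 70 and 49 of all members, and its density was 890.9 sites per Mb over 17.96 kb of DNA. At Hes1, 9 of 13 sites were upstream, and the strongest lay 4183 bp past the TSS (134 and 111). At Btg2 the site with the CArG box, 13981 bp upstream, had scores of 142 and 122, and a site 18139 bp past the TSS had 136 and 129.

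**Figure D4:**
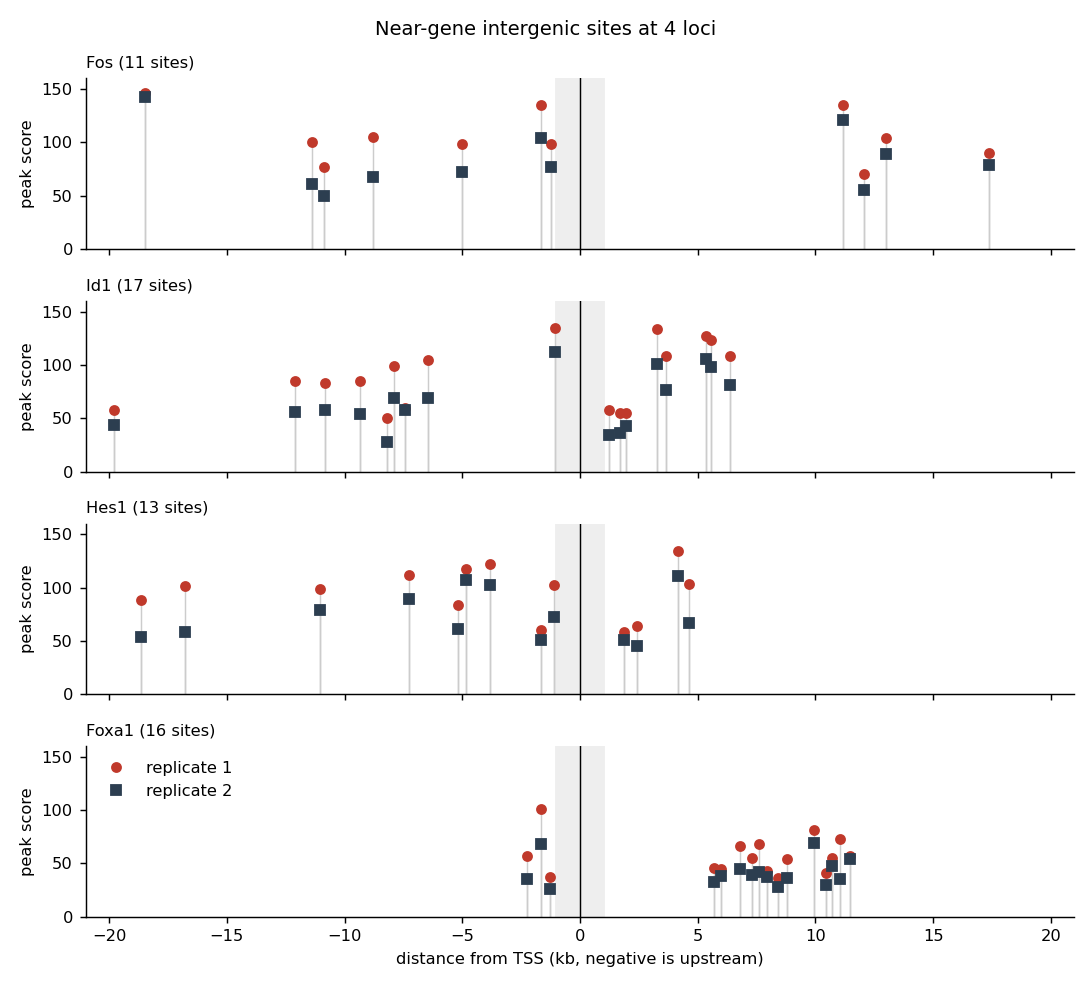
Near-gene intergenic sites around Fos (11 sites), Id1 (17), Hes1 (13) and Foxa1 (16), by distance in kb from the nearest TSS of the gene. The peak score is given for replicate 1 (red circles) and replicate 2 (dark squares). Sites of a gene may be measured from TSSs of different transcripts. Grey bands mark the 1000 bp on each side of the TSS that the rule leaves out. Replicate 1 scores are the higher ones and the order of sites within a locus is similar in both.

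Beside 20 gene lists, of lung and blood cells, processes and other organs, the density ranged from 31.1 to 187.5 sites per Mb, against 72.2 beside all protein-coding genes. These lists were chosen with results of these data known, so their order is a description and no test was run. They also differ in the share of accessible promoters. Over all genes the density was 92.6 per Mb beside accessible promoters and 37.5 beside the others, so the 72.2 mixes both classes. The counts that follow are no check of the tissue label, since the lists were chosen with results known. Promoters were accessible for 14 of 14 alveolar type 2, 13 of 14 alveolar type 1, 19 of 21 endothelial, 17 of 17 fibroblast and 14 of 14 smooth muscle genes, but for 8 of 14 airway and 5 of 8 mesothelial genes. Among blood cell genes, promoters were accessible for 7 of 14 myeloid, 7 of 14 lymphoid and 6 of 10 erythroid genes. They were accessible for 14 of 14 housekeeping, 8 of 13 neuronal, 5 of 14 skeletal and cardiac muscle, 3 of 12 germ cell, 2 of 9 intestinal and 1 of 14 liver genes, beside the 70.0% of all genes.

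Immediate early genes, which stimuli switch on without new protein synthesis, had the densest and strongest sites of the 20 lists. Of 18 such genes with DNA that fits the rule, 16 had 62 sites, or 187.5 per Mb (143.7 to 240.3). Without Fos the density was 173.4 (129.1 to 228.0). Median scores were 97 and 70.5, against 70 and 49 for all members, and 85.5% of the sites ranked above the median of all shared sites, against 53.6% of all members. Fos had 11 sites. Their scores in replicate 1, from the far upstream end to the far 3′ side, were 146, 100, 77, 105, 99, 135, 99, 135, 70, 104 and 90, and in replicate 2 they were 143, 61, 50, 68, 72, 104, 77, 121, 55, 89 and 79. The sites at 18489 bp and 1669 bp upstream and at 11150 bp past the TSS were thus the highest in both replicates. Ier2 and Klf4 had 7 sites each. Of the 62 sites, 7 held an SP word (11.3%, against 2.47% of all members) and 7 an AP-1 word (11.3 against 7.97%). A CArG box was present in 4 (6.45 against 0.961%). These words were picked from all those searched, without intervals, and others were rarer here, such as GATA (1.61 against 6.72%). Sites of Fos and Junb were among those with a CArG box, and sites of Fos, Ier2 and Junb among those with SP. The comparison is not matched for score. Among all members the SP share rose from 1.6% in the weakest of 4 equal groups by score to 3.9% in the strongest.

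Genes of the glucocorticoid response and the circadian clock had 180.0 sites per Mb (119.6 to 260.1, 28 sites). The strongest lay 8218 bp upstream of Nr1d1 (141 and 121), the gene of the clock repressor REV-ERB alpha, and held the E-box CACGTG, the word that the clock activators CLOCK and BMAL1 bind. That word was present in 3.35% of all members and 3.43% of all shared sites. Nr1d1 and Klf9, a glucocorticoid-induced factor gene, had 5 sites each. Dusp1 is in this list and in that of immediate early genes. Housekeeping genes, which all cells use, had 153.6 per Mb (99.4 to 226.7), so a high density was not limited to regulated genes. Morphogen signalling genes had 150.3 per Mb (110.0 to 200.5), and 122.9 without Hes1.

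Among lung epithelial genes, those of alveolar type 2 cells, which make surfactant, had the most sites for their DNA, 169.1 per Mb (118.4 to 234.1). Of 13 such genes with DNA that fits the rule, 12 had 36 sites, with median scores of 83.5 and 64.5. Cebpa, a factor gene of type 2 cell maturation, had 9 sites with scores of 52 to 118 in replicate 1 and 47 to 90 in replicate 2, and without it the density was 147.5. Sftpd, a surfactant protein gene, had 6 sites, and Scd1, a fatty acid desaturase gene, had 4, of which the site 18069 bp past the TSS was the strongest of the list (122 and 106). Sftpb, another surfactant protein gene, had a site 11109 bp upstream (122 and 105) and one past its 3′ end (79 and 65). Sftpc had 1 site, 2980 bp upstream, with scores of 119 and 93. Alveolar type 1 genes had 22 sites, 113.5 per Mb (71.1 to 171.9), led by Aqp5 and Hopx with 4 each. The site 11490 bp upstream of Hopx, a homeodomain gene of type 1 cells, had scores of 121 and 93. Regulators of lung epithelium had 118.6 per Mb, and 70.0 (42.8 to 108.1) without Foxa1, which held 16 of their 36 sites. Airway genes had 87.8 per Mb (55.7 to 131.8), and Scgb1a1 had 5 of their 23 sites although its promoter was not called accessible.

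Smooth muscle and pericyte genes had many sites of low score. Their 28 sites came to 175.6 per Mb (116.7 to 253.8), with medians of 60.5 and 41, below those of all members. Des, an intermediate filament gene of muscle, had 5 of them and Acta2, the smooth muscle actin gene, had 4. Fibroblast and mesenchymal genes had 104.9 per Mb (70.2 to 150.6), with medians of 79 and 57, and 82.0 without Col1a1, which had 8 sites. Col1a1 and Col1a2 encode the chains of type I collagen, and Col1a2 had 7. Endothelial genes had 90.3 per Mb (60.9 to 128.9), and Erg, an ETS factor gene of endothelium, had 4 of 30 sites.

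**Figure D5:**
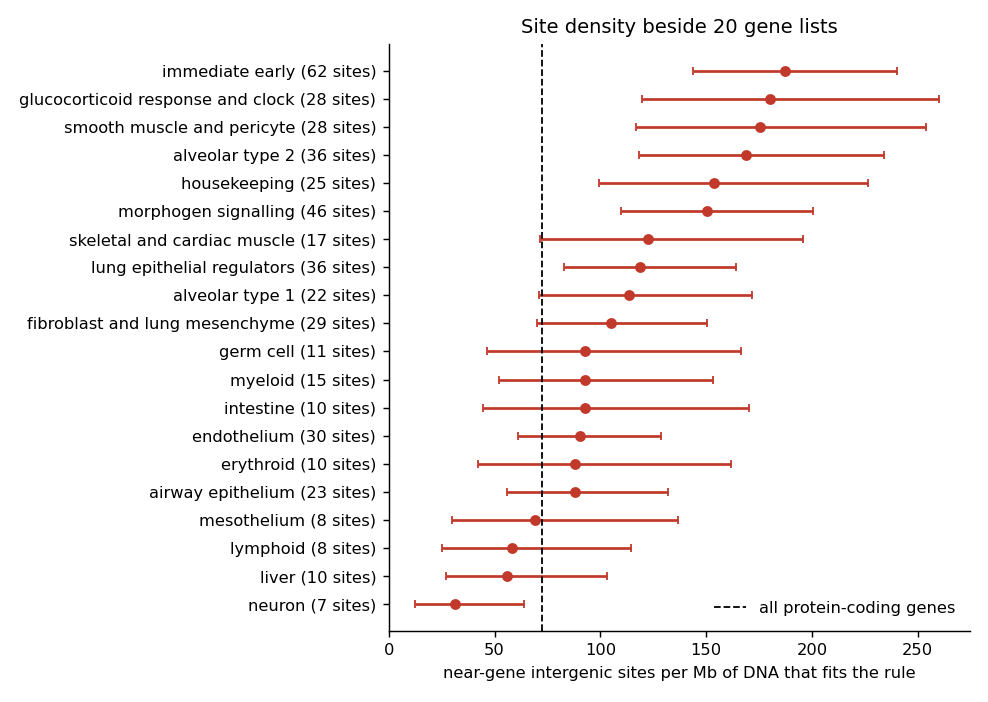
Near-gene intergenic sites per Mb of DNA that fits the rule, beside 20 gene lists. Points are densities and bars exact 95% intervals for counting error. The dashed line marks all protein-coding genes (72.2), with or without an accessible promoter. Immediate early genes are highest (187.5) and neuronal genes lowest (31.1).

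Lists of blood cells and of other organs ranged from 31.1 to 122.4 sites per Mb and overlapped lung lists such as those of endothelium, airway and alveolar type 1 cells. Myeloid genes had 92.8 sites per Mb, erythroid genes 87.9, lymphoid genes 58.1, mesothelial genes 69.3 and liver genes 56.1, each on 8 to 15 sites. Neuronal genes had 31.1, the lowest of the 20 lists, on 7 sites, and their interval (12.5 to 64.0) lay below 72.2. Germ cell genes had 92.95, intestinal genes 92.6, and skeletal and cardiac muscle genes 122.4 (71.3 to 195.9). The intervals of the other 8 lists named here include 72.2, a value over genes with and without an accessible promoter.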

How the data were processed

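The authors called peaks and hotspots separately in each library, from its alignments to mm10, per the file notes. No aligner or caller is named in the sources used here. Each deposited peak carries a score whose meaning is not given. It was used to rank and compare peaks within a list, and its ratio between the lists is a description only. Each deposited hotspot carries a −log10 q-value, capped at 100. Exact duplicate peaks (25 and 22) were removed, and peaks of both replicates that overlapped by at least 1 bp were merged. Genes came from GENCODE M21 and sequence from RefSeq GRCm38. Every distance is from the nearest TSS of any transcript, so sites of a gene may be measured from different TSSs. DNA that fits the rule was counted on a 20 bp grid without unknown bases. A hotspot held a site if it enclosed its centre. Words were searched in 150 bp around the centre, and flanking windows lay 2000 bp away on either side, outside all hotspots.

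Shares have exact binomial, densities exact Poisson and medians order-statistic 95% intervals. They cover counting error only. With 1 group of 2 replicates, no p-value was computed. The members and the 20 gene lists were chosen with earlier results of these data known. The rule for names selected the 10 strongest members, per list and per word the strongest member, the 10 genes with most sites (of 7 tied at 12, the first 3 in alphabetical order), and per list the 3 genes with most sites. Some that this rule selects are left out of the text, and others were named for their role or are marked as chosen later. Classification, merging and word search were tested on simulated data, where 11 of 11 site classes and 5400 of 5400 planted words were recovered. Python 3.11.15, NumPy 2.4.6, pandas 2.3.3 and SciPy 1.17.1 were used. Alternatives changed overlap, score, distance, annotation, replicate, hotspots and window.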

Additional observations from a re-analysis of the deposited data

Results flagged for a closer look

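Data outside chromosomes 1 to 19 held further signal. By the same rule on position, chromosome X had 387 shared sites near genes. Their scores had a median of 51 in replicate 1 and of 34 in replicate 2, below the 70 and 49 of chromosomes 1 to 19. The sex of the animals was not collected. Replicate 1 listed 360 peaks on scaffolds outside the assembled chromosomes and replicate 2 listed 181. The mitochondrial genome, which has no nucleosomes, had 26 peaks in replicate 1 and 24 in replicate 2. None of these entered the values above.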

How the results depend on the processing

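Across 13 alternatives and 12 results, 87 of 136 values stayed within the interval of the reported value, or for the number of sites within 1.5 times, and 49 did not. Limiting peaks to those above the median score of their list gave 9965 sites, medians of 85 and 64, 50.7% GC, a density ratio of 1.68, 99.8% in both hotspots, 69.8% upstream, 79.0% beside accessible promoters and 10.9% with CTCF. An upper limit of 50 kb gave 28149 sites, medians of 68 and 47, 49.3% GC, 66.0% upstream, 81.9% beside accessible promoters and 6.69% with CTCF, and a limit of 10 kb gave 9993 sites, 76.5% upstream. RefSeq genes gave a median of 69 in replicate 1, 49.3% GC, 77.8% upstream and 79.0% beside accessible promoters. Taking 1 TSS per gene, the 5′ end of its model, gave 81.8% upstream and 73.0% beside accessible promoters, and gene bodies lengthened by 1000 bp at the 3′ end gave 73.5% upstream. An overlap of at least 75 bp gave 98.6% in both hotspots and 80.1% beside accessible promoters. Hotspots in place of peaks gave a density ratio of 1.32, 49.3% GC, 6.81% with AP-1 and 6.27% with CTCF, and windows of 300 bp gave 11.1% with AP-1 and 48.7% GC. Scores could not be computed for hotspots, nor the density ratio for a limit of 10 kb.

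Using the peaks of 1 replicate alone, the number of sites was 19470 to 28959, the share with CTCF 4.52 to 6.60%, that with AP-1 7.41 to 7.87%, and GC 49.3% in both. The share in both hotspots was 59.1 to 90.4%, that upstream 70.5 to 71.3%, that beside accessible promoters 80.6 to 84.8%, and the density ratio 1.602 to 1.69. Median scores were 52 for replicate 1 and 46 for replicate 2. The cause of these shifts was not tested. No paired analysis was possible because the study has 1 group. Depth is unknown, so weak sites of replicate 2 may be missed. Neighbouring sites and genes are not independent, and the intervals are then too narrow.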

Other observations

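The words at near-gene sites differed with the state of the neighbouring promoter. Beside genes with an accessible promoter, 6.92% of 13804 sites held the CTCF core (6.50 to 7.35%), and beside genes without one 8.99% of 3270 (8.03 to 10.02%). ETS words went the other way, with 13.2% (12.6 to 13.8%) beside accessible promoters and 10.8% (9.78 to 11.9%) beside the others. AP-1 words were present in 8.21% (7.76 to 8.68%) beside accessible promoters and 6.94% (6.09 to 7.87%) beside the others, with overlapping intervals. FOX words were present in 5.67% of sites beside accessible promoters and 5.57% of the others, and SP words in 2.49 and 2.42%.

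Clustered gene families other than the sensory receptors also differed in density. Defensin genes, which encode antimicrobial peptides, had 17.8 sites per Mb (10.7 to 27.7), with 2 of 64 promoters accessible. Keratin-associated protein genes of the hair shaft had 23.9 (13.9 to 38.3), with 4 of 57 accessible. Clustered histone genes had 77.3 (49.0 to 115.9), with 56 of 67 accessible. These families were chosen after the densities of the other genes were seen, and near-identical copies make their values uncertain.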
